A study of Mus musculus with 4 samples.

Results

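Imprinted growth genes were followed across 4 Affymetrix arrays of sorted mouse foetal liver progenitors. The 10 genes were Igf2, Dlk1, Peg3, Ndn, Mest and Plagl1, which are expressed from the paternal allele, and Igf2r, Meg3, Cdkn1c and Grb10, which are expressed from the maternal allele in most tissues. They were taken by name, with every probe set annotated to exactly 1 of them, which gave 38 probe sets of 45037 on the array and 10 genes of 18193 with a probe set of their own. The paternally expressed genes had 21 of these probe sets and the maternally expressed genes 17. The probe sets do not tell the alleles apart, so each value is the sum of both.

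The cells were lineage negative, cKit+ and Sca1+ (LSK), a sort that enriches blood stem cells and multipotent progenitors. All came from female Hes1 GFP/WT embryos at E13.5, in which 1 allele of Hes1 carries a GFP reporter. They were untreated, and the labels give neither the strain nor whether embryos were pooled. The arrays compare HES1-GFP positive cells (1 array) with HES1-GFP negative cells (3 arrays), and no label tells if the 3 negative samples are separate litters or sorts. The p-values therefore measure only the spread between these samples, which may be technical. They also take the single positive array to vary as much as the negative ones.

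Genomic imprinting is the expression of a gene from 1 parental copy, set by DNA methylation that the copy received in the germ line. Many imprinted genes act on foetal growth. As a rule, paternally expressed ones such as Igf2 favour growth and maternally expressed ones such as Igf2r and Cdkn1c restrain it. Several members of this group, Cdkn1c, Dlk1, Meg3 and Igf2 among them, are known from mouse work in connection with quiescence and upkeep of blood stem cells.

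The 4 arrays had nearly equal median intensities of 74.8 to 76.1 on the linear scale, and precision is limited by there being only 4 arrays. Hes1 itself, from a single probe set, went against the labels. The array labelled positive read 6.57 on the log2 scale, against 8.78, 9.07 and 6.70 in negative replicates 1, 2 and 3. The array labelled positive was thus the lowest, but by only 0.13 from replicate 3. Its difference from the negative mean was -1.62 with a standard error of 1.1. Directions below are therefore those of the array labelled positive. Of the 9 measured LSK markers (Ly6a, which encodes Sca1, had no probe set of its own) all were above background on every array, with summed linear intensities of 15559 in the array labelled positive, against 14284, 11739 and 13674 in negative replicates 1, 2 and 3. As a background gauge, the 95th percentile of 44 olfactory receptor probe sets was used on each array. It lay at 5.46 log2 units for the array labelled positive, against 5.43, 5.62 and 5.47 for negative replicates 1, 2 and 3. All 10 members had a lead probe set above it on every array, as had 11821 of all 18193 genes. On at least 1 array, 75.1% of all genes had a lead probe set above it. The lead probe set of a gene is that with the highest mean over the 4 arrays.

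None of the members differed between the labelled groups by more than the test requires. With limma 0 of the 38 member probe sets had an adjusted p under 0.05, as had 0 of all 45037 (0%). At an unadjusted p under 0.05 there were 3 member probe sets (1 each of Peg3, Ndn and Plagl1) and 2032 of all probe sets, and the lowest adjusted p among the members was 0.819. The array labelled positive lay above the range of the negative arrays in 4 member probe sets, below it in 9 and within it in 25. Over all probe sets it lay above in 23.2% and below in 23.6%. It lay at least 1 log2 unit below the range in 2 member probe sets, against 0.631% of all probe sets, and at least 1 unit above it in 0, against 1.35%.

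Several members had a wide spread among the 4 arrays. In 6 of the 10 members (Igf2, Dlk1, Peg3, Mest, Plagl1 and Cdkn1c) the lead probe set spanned at least 1 log2 unit from the lowest to the highest array, and 24.8% of all genes did so. These were 5 of the 6 paternally expressed members and 1 of the 4 maternally expressed ones. All 10 members were above the gauge on every array, whereas the 24.8% takes in 4536 genes above it on none. Among other imprinted genes, 7 of 16 paternally expressed (43.8%) and 2 of 8 maternally expressed (25%) spanned at least 1 log2 unit. Igf2r, Meg3, Grb10 and Ndn spanned as much only in probe sets other than the lead. Over probe sets, 18 of the 38 did so (47.4%), against 29% of all probe sets. They were 13 of the 21 of paternally expressed genes and 5 of the 17 of maternally expressed ones. In 8 members the negative array nearest to the array labelled positive was replicate 3, against 41.3% of all genes. Over the 38 member probe sets this was so in 19, against 39.7% of all probe sets.

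**Figure D1:**
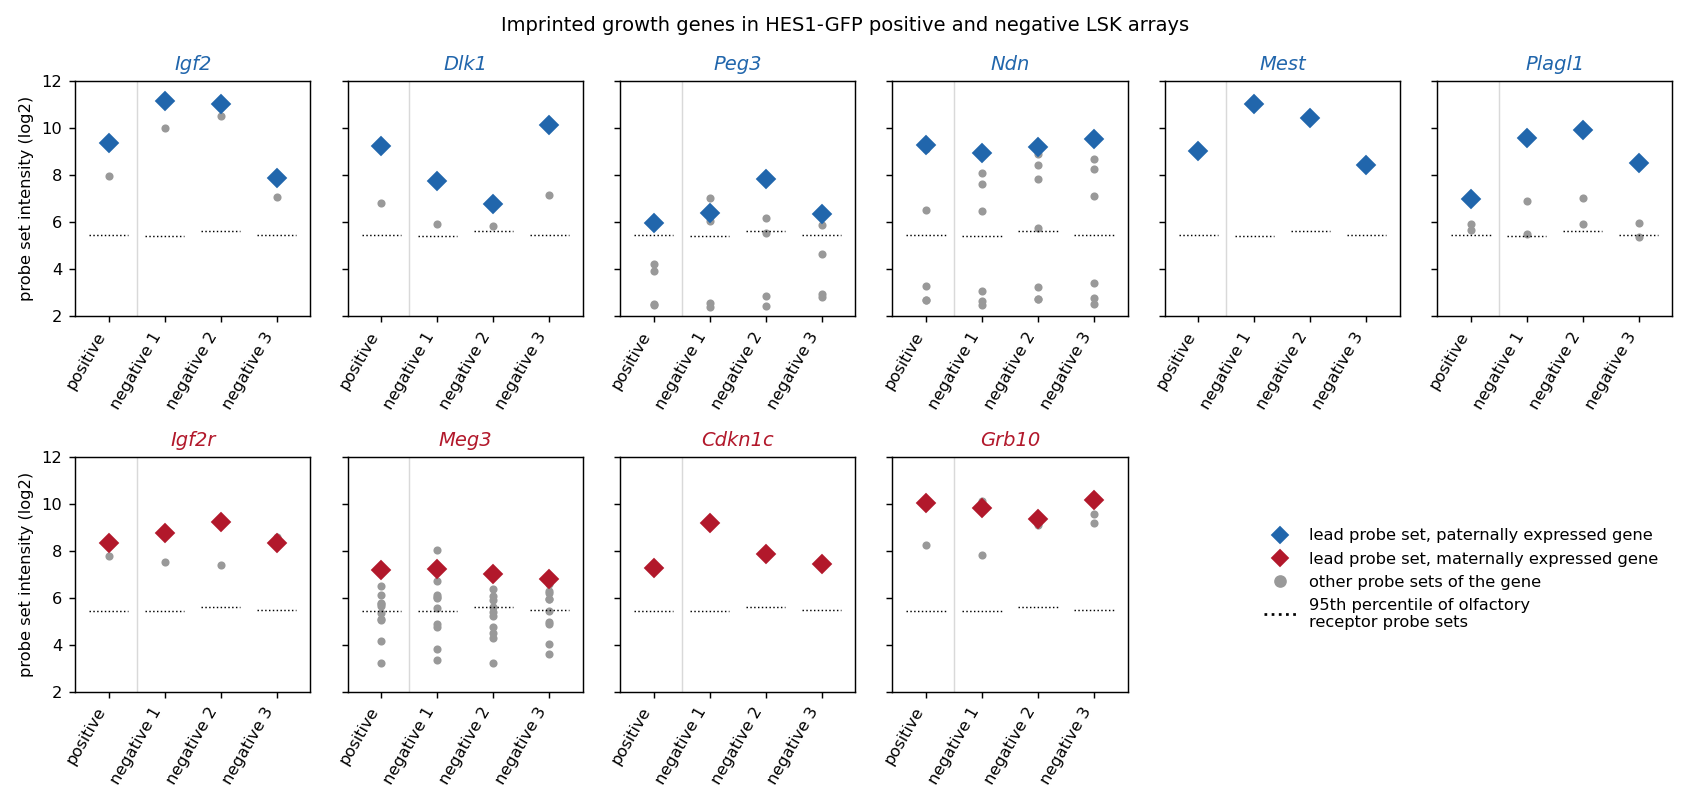
Log2 probe set intensity (vertical axis) of the 10 imprinted growth genes in the HES1-GFP positive array and the 3 HES1-GFP negative arrays (horizontal axis). Diamonds are lead probe sets, blue for paternally and red for maternally expressed genes, grey points are the other probe sets of the gene, and dotted lines are the olfactory receptor gauge. Igf2 spans 7.90 to 11.14 and Dlk1 6.78 to 10.13, with negative replicate 3 lowest for Igf2 and highest for Dlk1, while Meg3, Ndn and Grb10 lead probe sets stay within a narrow band.

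To show the starts of the paternally expressed genes with the widest spreads, 1 window of 300 bases each of Igf2, Mest, Plagl1 and Dlk1 is printed, around a RefSeq transcript start (GRCm38.p6), 5′ to 3′ on the gene's strand. Capitals mark matches on either strand to sites that Hes1 is known to bind. One is the N box, spelled CACNAG. The other is the class C site, spelled CACGNG, and a single word can match both. The Igf2 window is the one of its 4 that lies furthest 3′, at chr7:142657447-142657746 on the minus strand. The Mest window is the second of 3, at chr6:30737800-30738099 on the plus strand. Those of Plagl1 at chr10:13090582-13090881 and Dlk1 at chr12:109452573-109452872, both on the plus strand, are the only ones listed.
Igf2: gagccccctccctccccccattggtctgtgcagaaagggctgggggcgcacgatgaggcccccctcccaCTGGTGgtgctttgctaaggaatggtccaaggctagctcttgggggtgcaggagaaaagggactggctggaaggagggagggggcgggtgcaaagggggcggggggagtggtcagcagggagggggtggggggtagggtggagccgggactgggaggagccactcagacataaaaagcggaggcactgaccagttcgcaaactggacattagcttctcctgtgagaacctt
Mest: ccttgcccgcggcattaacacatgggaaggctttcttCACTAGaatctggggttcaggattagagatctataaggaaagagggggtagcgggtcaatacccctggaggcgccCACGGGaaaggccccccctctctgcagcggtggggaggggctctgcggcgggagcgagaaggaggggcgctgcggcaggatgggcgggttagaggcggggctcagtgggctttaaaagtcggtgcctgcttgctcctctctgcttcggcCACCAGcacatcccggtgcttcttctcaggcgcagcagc
Plagl1: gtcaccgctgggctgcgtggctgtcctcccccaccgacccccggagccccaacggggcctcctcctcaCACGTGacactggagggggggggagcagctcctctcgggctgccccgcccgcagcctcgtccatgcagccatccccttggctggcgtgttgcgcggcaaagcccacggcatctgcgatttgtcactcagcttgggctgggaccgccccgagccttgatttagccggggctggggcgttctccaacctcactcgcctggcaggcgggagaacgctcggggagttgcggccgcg
Dlk1: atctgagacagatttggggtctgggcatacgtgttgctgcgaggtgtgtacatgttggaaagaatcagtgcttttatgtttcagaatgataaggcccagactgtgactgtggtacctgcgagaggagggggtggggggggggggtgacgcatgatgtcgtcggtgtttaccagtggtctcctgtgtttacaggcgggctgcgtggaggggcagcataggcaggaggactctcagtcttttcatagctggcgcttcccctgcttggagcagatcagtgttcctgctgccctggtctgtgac

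The Dlk1 window held no match to either site, the Igf2 window 1 N box, the Plagl1 window 1 class C site, and the Mest window 2 N boxes and 1 class C site. Over the 16 windows of the 9 members that matched the RefSeq table, 8 held an N box and 8 a class C site. The Mest windows starting at 30737800 and 30737803 overlap almost wholly, so the same matches are counted more than once. By gene, an N box was found for Igf2, Ndn, Mest, Igf2r and Meg3. A class C site was found for Igf2, Mest, Plagl1, Igf2r and Grb10. Of all 32851 windows, 42.5% held an N box and 27.5% a class C site. An excess in the member windows was not tested. The Igf2r window held 5 class C sites and 1 N box. The Plagl1 protein is known to bind the letters GGGGCCCC. These were found in the Peg3 window alone among the 16, and in 1.08% of all windows. The member windows differed widely in CpG content, with 45 CpG pairs in 1 window of Grb10 and 34 in that of Igf2r, against 1 in the second window of Meg3 and 2 in the first of Igf2. The median over all windows was 7. A match here is a description of letters, and binding was not measured.

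Igf2 encodes insulin-like growth factor 2, the main foetal growth factor of the insulin-like family. Its lead probe set had a linear intensity of 658 in the array labelled positive, against 2255, 2102 and 239 in negative replicates 1, 2 and 3. The array labelled positive lay between replicate 3 and the other two. On the log2 scale it was at 9.36 against 10.03 ± 1.84 (SD, n = 3), a difference of -0.67 with a standard error of 1.55 (limma adjusted p = 1.00). In the second probe set the array labelled positive again lay between them, at 7.95 against 9.99, 10.53 and 7.06 in the negative arrays. The difference of the lead probe set was -1.78 from replicate 1, -1.68 from replicate 2 and 1.46 from replicate 3, and so depended in sign on the replicate. Without negative replicate 3 it was -1.73 (limma adjusted p = 0.574), and without replicates 1 or 2 it was -0.11 or -0.16.

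Mest, a paternally expressed gene of the hydrolase fold family that marks mesoderm, had, of the other members, the profile closest to that of Igf2. It read 9.03 in the array labelled positive, against 11.01, 10.44 and 8.43 in negative replicates 1, 2 and 3, from a single probe set. Here too the array labelled positive lay inside the negative range, just above replicate 3. The difference was -0.93 with a standard error of 1.15 (limma adjusted p = 1.00), and -1.69 without replicate 3 or -0.40 without replicate 1. Centred on their own means, Igf2 and Mest lay 0.83 apart by Euclidean distance over the 4 arrays, against 5.18 for Igf2 and Dlk1, the most distant of the member pairs.

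Dlk1, a transmembrane protein with epidermal growth factor repeats related to the Notch ligands, ran the other way. The brighter of its 2 probe sets read 9.23 in the array labelled positive, against 7.76, 6.78 and 10.13 in negative replicates 1, 2 and 3. The array labelled positive was thus above replicates 1 and 2 and below replicate 3. The second, dimmer probe set had the same order of groups, at 6.81 against 5.91, 5.86 and 7.14. The difference of the lead probe set was 1.01 with a standard error of 1.45 (limma adjusted p = 1.00), and 1.96 without replicate 3 (adjusted p = 0.658). It was 0.77 without replicate 1 and 0.29 without replicate 2.

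Plagl1, a zinc finger transcription factor that arrests the cell cycle and acts on other imprinted genes, had the largest difference of any lead probe set among the 10 members. It read 6.99 in the array labelled positive, against 9.58, 9.90 and 8.51 in negative replicates 1, 2 and 3. All 3 negative arrays were higher, the nearest by 1.52. The difference was -2.34 with a standard error of 0.64 (limma adjusted p = 0.981). With replicate 1, 2 or 3 left out it was -2.21, -2.05 or -2.75. The other 2 probe sets did not share the size of this difference. One was at 5.92 against 6.90, 7.02 and 5.36, and the other, near the background gauge, was at 5.66 against 5.51, 5.93 and 5.97. Averaged over the 3 probe sets the difference was -1.0. The name of the lead probe set ends in _x_at, the manufacturer's mark for probes that may also match other transcripts. The lead probe sets of Ndn and Meg3 carry the same mark.

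Peg3, a zinc finger protein of cell survival and metabolism, lay below the negative range in 4 of its 5 probe sets. Of these 4, only the lead was above the gauge on all arrays, and another was at background on every array. Its lead probe set read 5.95 in the array labelled positive, against 6.39, 7.82 and 6.33 in negative replicates 1, 2 and 3, and replicate 2 stood above the rest. Without replicate 2 its difference of -0.90 was -0.41, and without replicates 1 or 3 it was -1.13 or -1.16. The probe set with the lowest unadjusted p of all 38 was at 3.94 against 6.07, 5.56 and 5.90, a difference of -1.91 with a standard error of 0.29 (limma adjusted p = 0.819). In that probe set the array labelled positive was below the gauge, as was replicate 2, so the difference is between dim values. Another of its probe sets was at 4.24 against 7.04, 6.19 and 4.64, with the array labelled positive and replicate 3 below the gauge. The remaining 2 never exceeded 2.94. Their values are at background on every array.

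Ndn encodes necdin, a growth suppressor that interacts with E2F1 and p53. Its lead probe set read 9.30 in the array labelled positive, against 8.93, 9.20 and 9.53 in negative replicates 1, 2 and 3, a difference of 0.07 with a standard error of 0.32 (limma adjusted p = 1.00). Its 8 probe sets did not move as one. In 2 of them the array labelled positive was above every negative array, at 9.11 against 7.64, 7.84 and 8.28 in one, and at 9.15 against 8.08, 8.43 and 8.69 in the other. The first of these differed by 1.19 with a standard error of 0.33 (limma adjusted p = 0.987). Of the remaining probe sets, 6 lay within the negative range, 3 of them below the gauge on all 4 arrays.

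**Figure D2:**
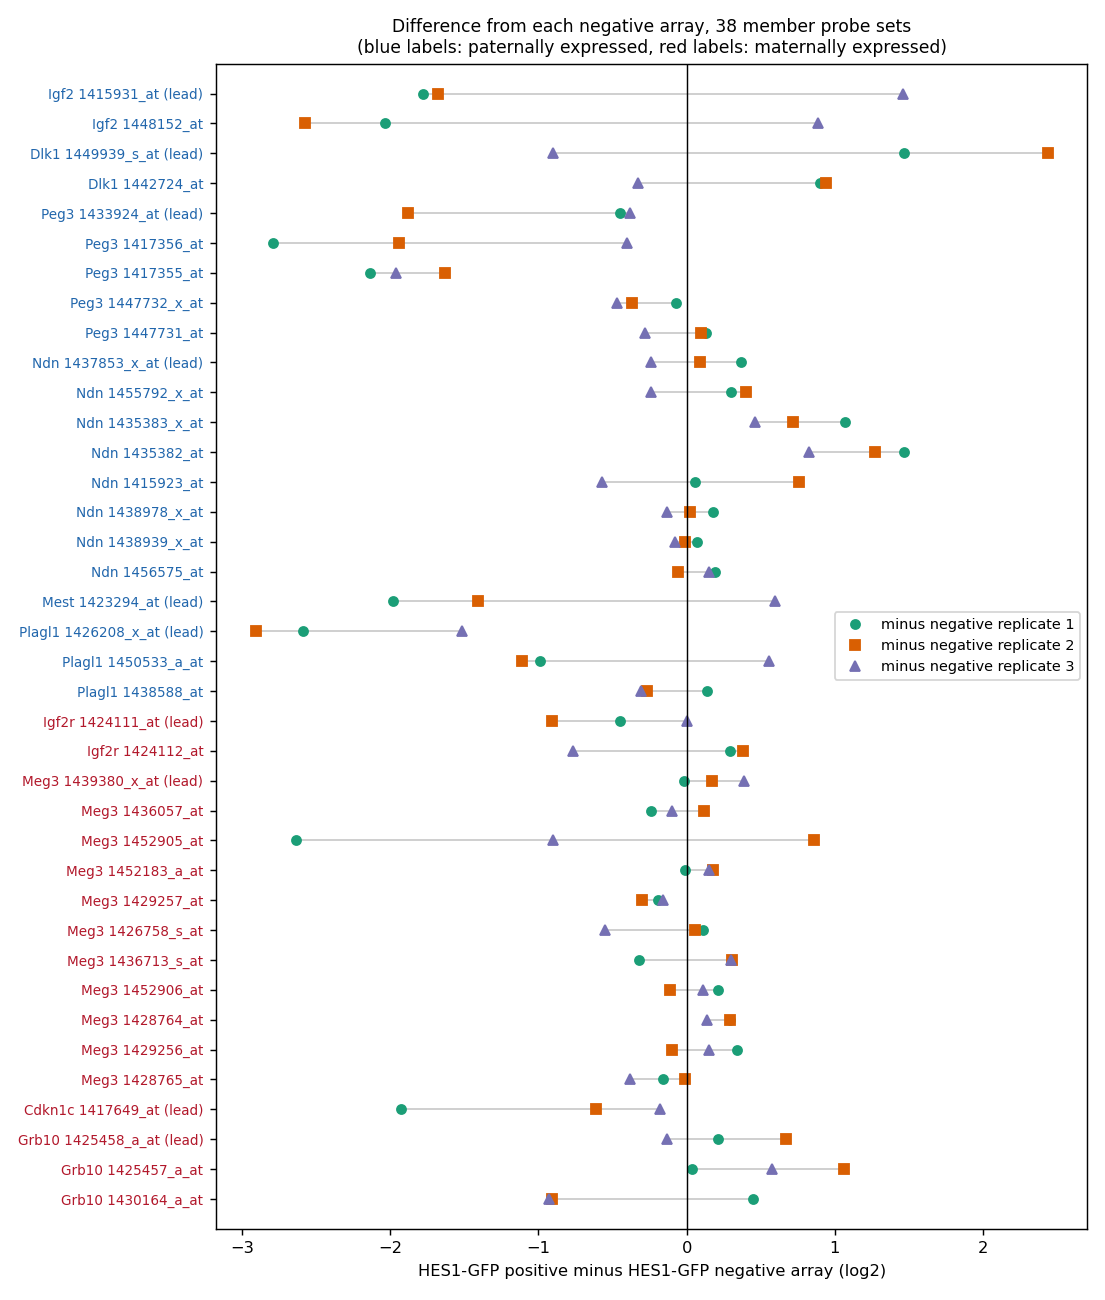
Difference in log2 intensity between the HES1-GFP positive array and each of the 3 HES1-GFP negative arrays (horizontal axis) for the 38 member probe sets (rows, ordered by gene). Circles, squares and triangles are the differences from negative replicates 1, 2 and 3, joined by a grey line. For Igf2, Mest and Dlk1 the triangle lies across 0 from the circle and square, while the lead probe set of Plagl1 is negative against all 3, from -1.52 to -2.91.

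Of the maternally expressed members, Cdkn1c had the lead probe set with the widest span. Cdkn1c encodes p57, a cyclin-dependent kinase inhibitor linked to stem cell quiescence. It read 7.26 in the array labelled positive, against 9.19, 7.87 and 7.44 in negative replicates 1, 2 and 3. The array labelled positive was the lowest, but by only 0.18, and replicate 1 stood well above the rest. The difference was -0.91 with a standard error of 0.79 (limma adjusted p = 1.00), and -0.40 without replicate 1.

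Igf2r encodes the receptor that clears Igf2 from the cell surface and carries enzymes to the lysosome. Its lead probe set read 8.34 in the array labelled positive, against 8.78, 9.24 and 8.34 in negative replicates 1, 2 and 3. The array labelled positive and replicate 3 were equal to 2 decimals. The second probe set had another order, at 7.80 against 7.51, 7.42 and 8.57, within the negative range. Their differences were -0.45 and -0.03, with standard errors of 0.42 and 0.57 (limma adjusted p = 1.00 for both). A further probe set, annotated to both Igf2r and its antisense transcript Airn, was left out by the rule.

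Grb10, an adaptor that dampens insulin and insulin-like growth factor receptor signalling, was bright in all 4 arrays. Its lead probe set read 10.04 in the array labelled positive, against 9.83, 9.37 and 10.17 in negative replicates 1, 2 and 3. A second probe set was at 10.14 against 10.10, 9.08 and 9.56, above the range by 0.04. The last had the opposite sign, at 8.27 against 7.81, 9.18 and 9.19. The 3 differences were 0.25, 0.56 and -0.46, with standard errors of 0.39, 0.47 and 0.69 (limma adjusted p = 1.00 for each).

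Meg3 is a long non-coding RNA made from the maternal copy of the domain that holds Dlk1. The lead probe set read 7.20 in the array labelled positive, against 7.22, 7.03 and 6.81 in negative replicates 1, 2 and 3. It thus stayed within 0.41 log2 units over arrays between which Dlk1 spanned 3.34. Of its 11 probe sets, 4 were below the gauge on every array, and 8 lay within the negative range. One stood out by its scatter, at 5.38 in the array labelled positive, against 8.02, 4.51 and 6.28 in the negative arrays. Averaged over its probe sets the difference of Meg3 was -0.06, against 0.18 for the lead probe set.

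Grouped by parental allele, the lead probe sets of the paternally expressed members lay above the negative range in 0, within it in 4 and below it in 2 of 6 genes, with a median difference of -0.78. For the maternally expressed members these were 0, 2 and 2 of 4 genes, with a median of -0.14. One of the 2 below is Igf2r, which was level with replicate 3 at a linear intensity of 323 against 324. Over all genes 23.6% lay above and 23% below, with a median of 0.00. Over all probe sets of the members, the median was -0.02 for the 21 of the paternally expressed genes and -0.03 for the 17 of the maternally expressed ones, medians in which Ndn (8 of 21) and Meg3 (11 of 17) weigh most and which include 9 probe sets above the gauge on no array. With the probe sets averaged within each gene, the medians were -0.94 for the paternally and -0.15 for the maternally expressed members. Set against 1 negative array at a time, the median of the paternally expressed group was -1.11 for replicate 1, -1.54 for replicate 2 and -0.31 for replicate 3. It was -0.26 with replicate 1 left out, -0.29 without replicate 2 and -1.43 without replicate 3. Within that group Dlk1 and Ndn had positive differences and the other 4 negative ones.

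Other imprinted genes were read from their lead probe sets. Of 30 listed, 24 had a probe set of their own, 16 paternally and 8 maternally expressed. The paternally expressed ones lay above the negative range in 2, within it in 8 and below it in 6, with a median difference of -0.17. For the maternally expressed ones the counts were 0, 6 and 2, with a median of -0.04. In neither group did a gene lie 1 log2 unit or more outside the range, against 0.841% of all genes above it and 0.566% below it, and 0 passed limma. H19, the maternally expressed neighbour of Igf2, had no probe set of its own. A probe set annotated to both H19 and Mir675, the microRNA within it, read 10.70 in the array labelled positive, against 12.11, 11.99 and 10.57 in negative replicates 1, 2 and 3. Its order of arrays was that of the Igf2 lead probe set.

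In the domain of Dlk1 and Meg3, the lead probe set of Rian, a maternally expressed non-coding RNA that hosts small nucleolar RNAs, read 5.74 in the array labelled positive, against 8.0, 6.47 and 5.78 in negative replicates 1, 2 and 3. Its second-brightest probe set ran the other way, at 6.02 against 4.26, 5.28 and 5.57, with replicates 1 and 2 below the gauge. Airn, the paternally expressed antisense transcript of Igf2r, was at 7.55 against 9.32, 7.91 and 7.03, and 4 of its 5 probe sets were lower in the array labelled positive than the mean of the negative arrays. Kcnq1ot1, the paternally expressed transcript of the Cdkn1c domain, was named after its values were seen. It was at 8.20 against 9.64, 8.92 and 9.27 (limma adjusted p = 1.00), but 2 of its 6 probe sets were higher in the array labelled positive than in every negative array, with differences over its probe sets from -1.40 to 1.83.

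The remaining imprinted genes that spanned at least 2 log2 units, as 5.7% of all genes did, were mostly dim. Peg10, a gene derived from a retrotransposon, read 5.74 in the array labelled positive, against 4.93, 6.95 and 3.98 in negative replicates 1, 2 and 3, and crossed the gauge on 2 arrays. Peg12 was at 6.32 against 4.68, 6.67 and 6.68. Mkrn3, a ring finger protein, was above the gauge in replicate 1 alone, and Slc38a4, an amino acid transporter, in replicate 2 alone. Values near the gauge, as most of these are, give no order between arrays.

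**Figure D3:**
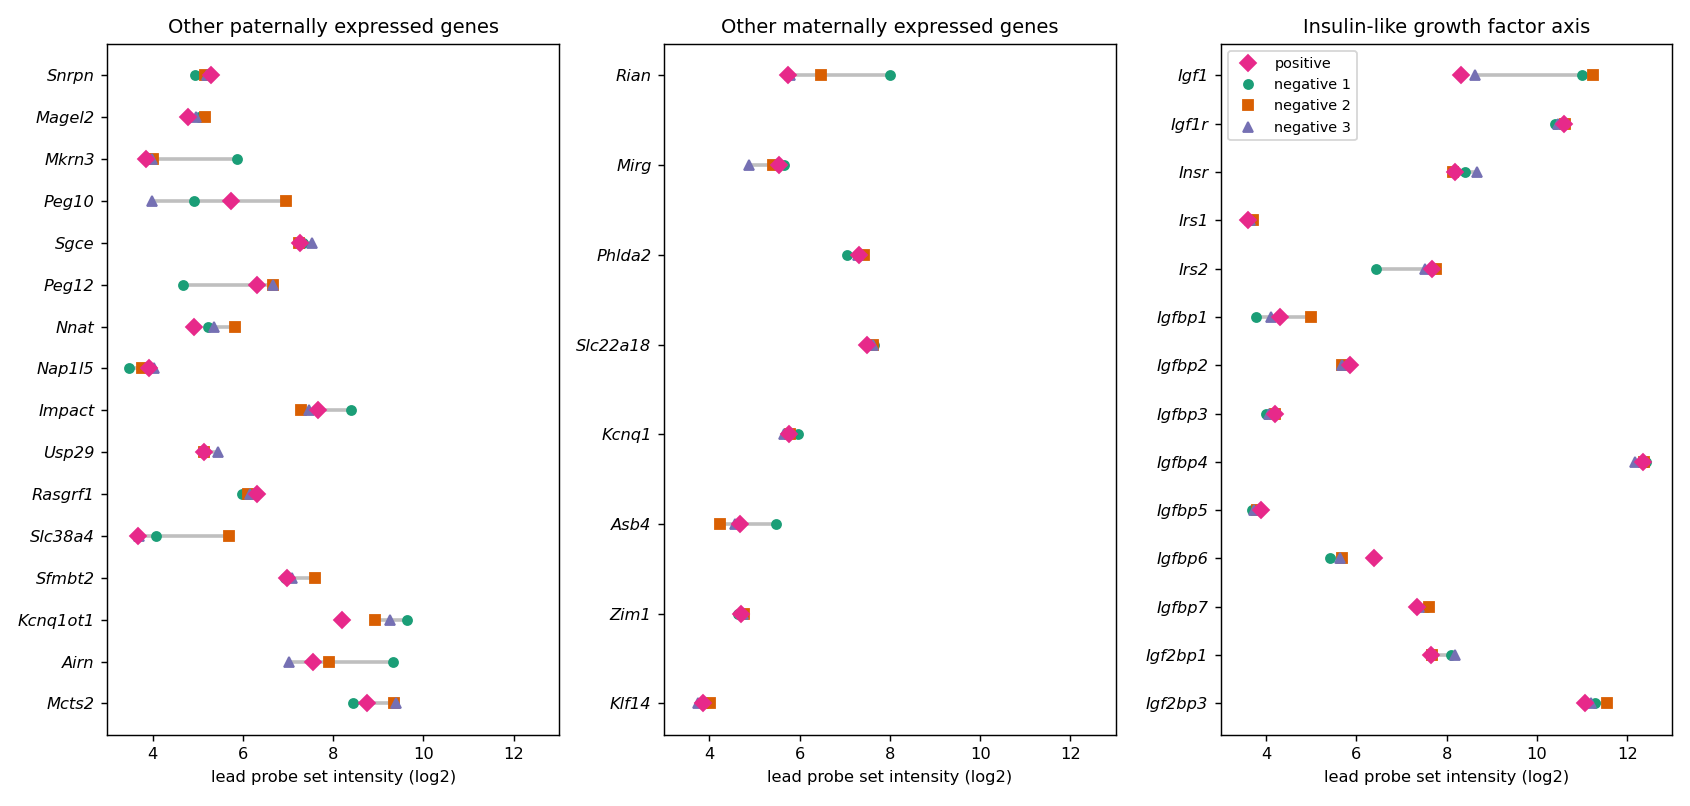
Lead probe set intensity (log2, horizontal axis) of 16 other paternally expressed genes, 8 other maternally expressed genes and 14 genes of the insulin-like growth factor axis. Pink diamonds are the HES1-GFP positive array, circles, squares and triangles are HES1-GFP negative replicates 1, 2 and 3, and grey bars span the negative range. Igf1 stands out at 8.31 in the array labelled positive, against 11.00, 11.23 and 8.62 in the negative arrays, whereas Igf1r lies between 10.40 and 10.61 on all 4.

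Partners of Igf2 in the insulin-like growth factor pathway spanned at least 1 log2 unit in 3 of 14 genes measured (21.4%), against 24.8% of all genes. Of these 14 genes of the axis, 3 lay above the negative range, 7 within it and 4 below it, with a median difference of 0.02, and 0 passed limma. Irs1, Igfbp1, Igfbp3 and Igfbp5 were above the gauge on no array, and Igfbp5 is 1 of the 3 above the range. Igf1r, the receptor through which Igf2 signals, read 10.60 in the array labelled positive, against 10.40, 10.61 and 10.46 in negative replicates 1, 2 and 3. Igf1, the ligand that shares this receptor, was at 8.31 against 11.00, 11.23 and 8.62, a difference of -1.97 with a standard error of 1.23 (limma adjusted p = 1.00). The sign was the same in all 4 Igf1 probe sets. Igfbp6, a binding protein that prefers Igf2, was named after its values were seen and was at 6.39 against 5.42, 5.67 and 5.64 (limma adjusted p = 0.973). Factors that maintain imprints (Zfp57, Trim28, Ctcf, Dnmt1, Uhrf1 and Dppa3) had a median difference of -0.05, with 0 of 6 spanning 1 log2 unit.

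The genes with profiles most like those of the members were found among 12821 genes above the gauge on at least 1 array, unnamed clones and predicted genes left out, by the Euclidean distance between centred log2 values over the 4 arrays. Nearest to Igf2 were Lpl, a lipase (distance 0.30), and the macrophage genes Adgre1 (0.43) and C1qb (0.46). Adgre1 read 7.54 in the array labelled positive, against 9.39, 9.28 and 5.63 in negative replicates 1, 2 and 3. Nearest to Dlk1 were Slc22a4, a carnitine and ergothioneine transporter (0.26), Tmem17 (0.27) and Zfp595 (0.53). Nearest to Plagl1 were Hfe, a regulator of iron uptake (0.16), Prkcb, a protein kinase C (0.20), and Pik3r6, a phosphoinositide 3-kinase regulator (0.26). Mest had Gbp8, Dbn1 and Sdc3 within 0.27, Cdkn1c had Chst2, Nek2 and Pcdh17 within 0.12, and Peg3 had Lurap1, Ctla4 and Gbp2 within 0.18. With 4 arrays and so many genes, near neighbours may be found for many profiles. How near they lie for genes other than members was not computed, and the distances are a description. Some neighbours were below the gauge on most arrays. Lurap1 read 4.55 in the array labelled positive, against 4.91, 6.43 and 4.95, and Pcdh17 read 3.63 against 5.44, 4.29 and 3.78.

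Markers of other cells moved with some of these profiles, and their part in the results was not tested. In bulk samples, fewer cells of a type and less RNA per cell cannot be told apart. The summed linear intensity of the 8 macrophage markers was 3903 in the array labelled positive, against 23018, 21886 and 3528 in negative replicates 1, 2 and 3, with 7 markers above the gauge in the array labelled positive and 8 in each negative array. For the 7 B lineage markers it was 3710, against 17907, 18558 and 3694, all 7 above the gauge on every array. The 8 endothelial markers summed to 1003, against 4043, 3389 and 1617, with 6 and then 8, 8 and 8 above the gauge. Emcn, Tie1 and Esam were not higher in both replicates 1 and 2 than in the other arrays, whereas the remaining endothelial markers were. These 3 sums were higher in negative replicates 1 and 2 than in the other arrays, as were the lead probe sets of 6 of the 10 members (Igf2, Mest, Plagl1, Cdkn1c, Peg3 and Igf2r), of Igf1 and of Hes1 itself. Of all genes 17.4% had this order in the lead probe set. For Peg3 the margin was small, at 6.39 in replicate 1 against 6.33 in replicate 3. The second Igf2r probe set had another order. Of the 38 member probe sets, 10 were higher in replicates 1 and 2 than in the other arrays. The share over all probe sets was not computed, so that count cannot be called high or low. The 6 granulocyte markers ran the other way, as did Dlk1, at 39556 against 13780, 15449 and 39143, all above the gauge.

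Markers of hepatoblasts, cells known to express Igf2 and Dlk1 in the foetal liver, did not share 1 profile. Alb, which encodes albumin, read 7.62 in the array labelled positive, against 8.98, 8.29 and 7.22 in negative replicates 1, 2 and 3, the order of arrays seen for Igf2, and Ttr too was highest in replicate 1 and lowest in replicate 3. Hnf4a, a liver transcription factor, was at 9.41 against 8.14, 8.05 and 8.76. The 8 measured hepatoblast markers summed to 2104 in the array labelled positive, against 2231, 1755 and 1502 in negative replicates 1, 2 and 3, and all were above the gauge on each array. Stellate and mesenchymal markers summed to 885, against 1010, 1168 and 1031, with 4, 6, 6 and 6 of 10 above the gauge. Pdgfrb, Des, Ngfr and Col1a2 were above it on all 4 arrays, Col1a1 and Acta2 on 3, and Col3a1, Dcn, Lum and Pdgfra on none. The 6 erythroid markers summed to 18298, against 14803, 15427 and 19075, and were all above the gauge.

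**Figure D4:**
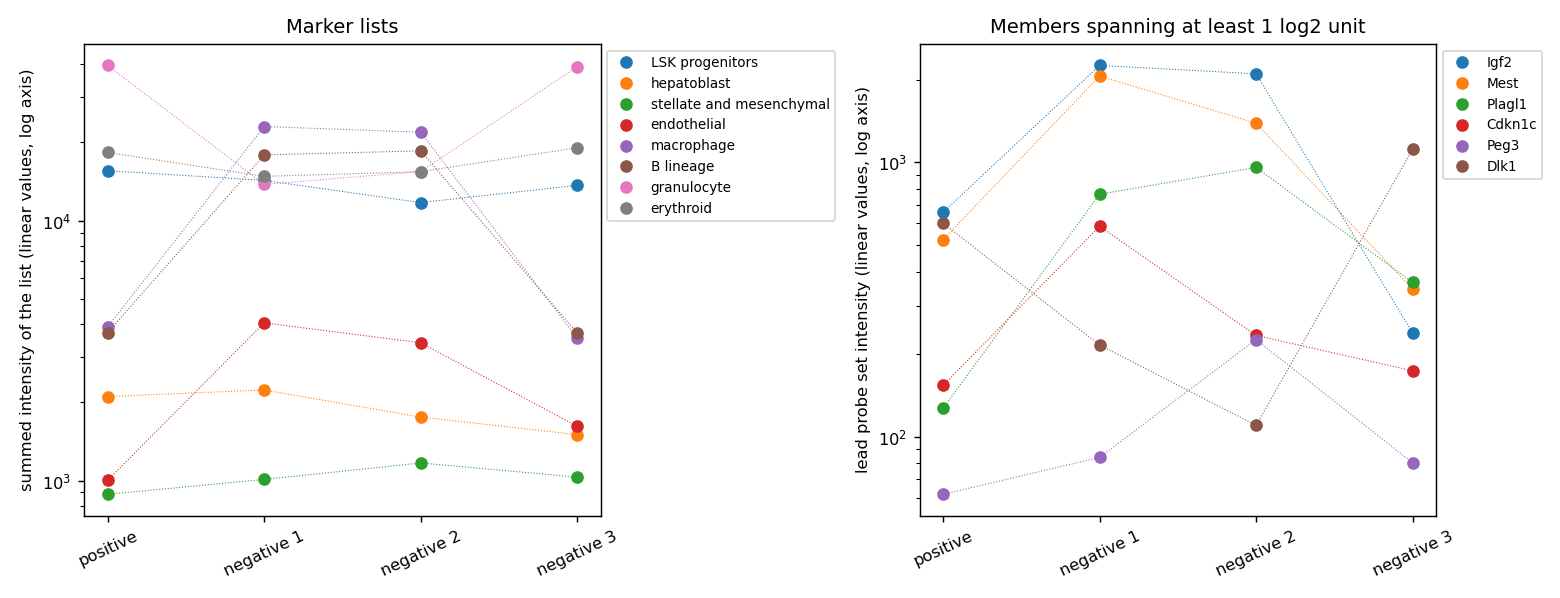
Left, summed linear intensity of 8 marker lists, and right, lead probe set intensity of the 6 members that span at least 1 log2 unit, both on a log axis, in the HES1-GFP positive array and the 3 HES1-GFP negative arrays. Dotted lines join the values of 1 list or gene and mark no order of the arrays. Macrophage markers (3903 against 23018, 21886 and 3528) and Igf2 (658 against 2255, 2102 and 239) are highest in negative replicates 1 and 2, where granulocyte markers and Dlk1 are lowest.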

How the data were processed

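Total RNA of sorted cells was extracted with a column kit, and 5 ng was amplified and labelled with biotin, per the labels' protocols. Such amplification can make dim values noisier. Per the submitters' processing notes the authors used RMA, with software and version not given in the sources used here. Intensities were deposited per probe set and run from 4.27 to 27451.5, which shows a linear scale. log2 was taken with no pseudocount. Of 45101 probe sets, 64 controls were set aside. The platform annotation gave 1 symbol to 34945 probe sets, several to 932 and none to 9160. Promoter sequences and assembly names are from RefSeq (GRCm38.p6), and the array values name no build.

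Positive was compared with negative by limma 3.58.1 (R 4.3.3; lmFit, eBayes, two-sided, Benjamini-Hochberg over all 45037 probe sets, threshold 0.05), with 2 residual degrees of freedom, all from the negative arrays. The fit was tested on simulated data in which the lone positive array was drawn with the same spread as the negative ones. That simulation therefore cannot show whether the real positive array varies like them. Named genes were all 10 members, Hes1, H19, Igf1r, listed genes at least 1 log2 unit outside the negative range or spanning at least 2, and the 3 nearest profiles of each member that spans at least 1. The members and lists were chosen with earlier results of these data known. Alternatives were cyclic loess, a level filter, trend and robust settings, 1 or averaged probe sets per gene, a floor of 32, a pseudocount of 16 and leaving out each negative array. Scanner files and detection calls were not used here.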

Additional observations from a re-analysis of the deposited data

How the results depend on the processing

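No member probe set passed limma under any of the 10 alternatives run. Over all probe sets the count was 0 in 9 of them and 413 with a floor of 32, of which 347 had all 3 negative arrays at the floor and thus no spread, a product of the floor itself. The count of member probe sets at least 1 log2 unit outside the negative range, 2 as reported, was 1 when dim probe sets were filtered out at the median level, 1 with 1 probe set per gene, 1 with the floor of 32 and 0 with averaged probe sets, settings that remove, merge or raise dim probe sets. Leaving out a negative replicate it ranged from 2 to 8, the 8 without replicate 3. The median difference of the paternally expressed members ranged from -1.43 to -0.26 in the same way, with -1.43 without replicate 3, -0.26 without replicate 1 and -0.29 without replicate 2. With that filter the median was -0.26 for the other paternally expressed genes and -0.19 for the growth factor axis, and with averaged probe sets it was -0.11 for the upkeep factors. The median of the growth factor axis ranged from -0.04 to 0.10 over the arrays left out, the highest without replicate 2. The lead difference of Meg3 was -0.06 with averaged probe sets, and that of Ndn ranged from -0.07 without replicate 1 to 0.23 over the arrays left out. The cause of these shifts in medians was not tested. The other 108 values of single genes kept their direction and stayed short of the threshold. No paired analysis was possible because the groups share only 1 replicate number. Leaving out an array leaves 1 residual degree of freedom, and the lone positive array is assumed to vary like the others, so a missed threshold shows little about stability.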
